A study of Homo sapiens with 15 samples.

Results

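Transcripts of 9 genes for ion and water movement across the intestinal epithelium were followed in Caco-2 cells exposed to rinse aid. The genes were AQP3, ATP1B1, SLC9A3, SLC26A3, CFTR, SCNN1A, SLC12A2, KCNN4 and CA2. They were chosen by symbol as the transport genes of enterocytes, by a rule that holds no measured value but was written with earlier results of these data known, and are 9 of 60557 gene identifiers that all files shared. Caco-2 is a human colorectal carcinoma line whose confluent monolayers take on features of small intestinal enterocytes, and rinse aid is the surfactant-based liquid added to the last rinse of a dishwasher. Monolayers were exposed for 24 h to rinse aid diluted 1:10000 or 1:40000, or left unexposed as controls, with 5 polyadenylated RNA libraries in each of 3 groups. All groups share the same line, a tumour line studied without the other cell types of the gut wall. Whether replicates came from separate cultures is not in the labels, and the p-values therefore cover only the spread between libraries, which may be technical.

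Epithelial fluid movement follows salt. The sodium pump, an alpha and a beta subunit in the basolateral membrane, keeps sodium low inside the cell, and that gradient drives uptake of salt across the apical membrane and loading of chloride across the basolateral one. For absorption, sodium enters through the exchanger NHE3 (SLC9A3) paired with the chloride-bicarbonate exchanger DRA (SLC26A3), or through the sodium channel ENaC, whose alpha subunit is SCNN1A. For secretion, the cotransporter NKCC1 (SLC12A2) loads chloride, CFTR releases it into the lumen, and basolateral potassium channels such as KCNN4 keep the voltage that drives it. Carbonic anhydrase II (CA2) supplies protons and bicarbonate to the exchangers, and AQP3 passes water and glycerol.

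Total counts ran from 5489425 to 9555632 at 1:10000, from 2551839 to 172092447 at 1:40000 and from 4333226 to 14230853 in controls. Per the file headers, rinse aid libraries were aligned with HISAT2 and controls with RNA STAR, to gene sets of 61544 and 60649 genes, and in each comparison with control exposure cannot be told apart from these differences. Between the dilutions both were shared. The share of mitochondrial ribosomal RNA was 3.11 to 3.83% at 1:10000, 0.626 to 1.24% at 1:40000 and 0.216 to 0.349% in controls, and its part in the results was not tested. Of 12 enterocyte markers, 10 passed the count filter. The villus protein gene VIL1 averaged 475 CPM, counts scaled to a common library size, at 1:10000, 588 CPM at 1:40000 and 760 CPM in controls, and the intestinal cadherin gene CDH17 averaged 694, 869 and 693 CPM in the same order of groups. KRT20 and LGALS4 lay below 1 CPM in every library, and both have transcripts outside the primary assembly. The summed enterocyte markers ran from 10583 to 12572 CPM at 1:10000, from 8154 to 9352 CPM at 1:40000 and from 7994 to 9800 CPM in controls, most of it KRT8 and KRT18. In the order 1:10000, 1:40000 and controls, KRT8 averaged 5445, 3737 and 4078 CPM and KRT18 averaged 3977, 2320 and 2384 CPM, both highest at 1:10000. EPCAM averaged 872, 835 and 884 CPM. The remaining enterocyte markers that passed the filter averaged lower at 1:10000 than in controls. Among them, ANPEP averaged 5.07, 7.57 and 8.97 CPM in the same order. The intestinal factor CDX2 averaged 63.0 CPM at 1:10000, 192 CPM at 1:40000 and 172 CPM in controls, the fatty acid binding protein gene FABP1 averaged 19.2, 95.8 and 91.5 CPM, sucrase-isomaltase SI 3.92, 3.77 and 18.7 CPM, and intestinal alkaline phosphatase ALPI 49.3, 73.7 and 70.1 CPM in the same order of groups. Of 6 goblet cell markers 2 passed the count filter, and the 6 summed to 8.83 to 18.1 CPM at 1:10000, 19.5 to 35.1 CPM at 1:40000 and 27.4 to 53.9 CPM in controls, with MUC2, SPDEF, FCGBP and CLCA1 below 1 CPM in every library. Of 6 fibroblast markers 4 passed, and the 6 summed to 80.7 to 101 CPM at 1:10000, 128 to 149 CPM at 1:40000 and 154 to 163 CPM in controls, with COL1A2 and DCN below 1 CPM. Of 6 leukocyte markers 1 passed, and the 6 summed to 4.79 to 7.45 CPM at 1:10000, 6.58 to 10.5 CPM at 1:40000 and 6.66 to 11.5 CPM in controls, with PTPRC, CD3E, CD68 and CD79A below 1 CPM. All 4 markers of BEST4 absorptive cells and 6 of 7 markers of enteroendocrine and tuft cells lay below 1 CPM in every library. Of these low markers, MUC2, PTPRC and the enteroendocrine marker CHGA also have transcripts outside the primary assembly. The part of these markers in the results was not tested, and in bulk RNA fewer cells carrying a transcript and less of it in each cell cannot be told apart.

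Promoters of AQP3, ATP1B1 and SLC12A2 are shown because these 3 genes fell at both dilutions and were lower at 1:10000 than at 1:40000. Promoters of 7 of the 9 genes were in the RefSeq table on GRCh38.p14, not those of SCNN1A and CA2. Each runs from 250 bases before to 50 bases after the RefSeq start of the gene, which can lie away from the GENCODE 29 gene ends given below. They are AQP3 at chr9:33447544-33447843 on the minus strand, ATP1B1 at chr1:169106440-169106739 on the plus strand and SLC12A2 at chr5:128083516-128083815 on the plus strand. Capitals mark exact matches to the GC box GGGCGG on either strand (CCGCCC on the other) and to the TATA box TATAAA.
AQP3: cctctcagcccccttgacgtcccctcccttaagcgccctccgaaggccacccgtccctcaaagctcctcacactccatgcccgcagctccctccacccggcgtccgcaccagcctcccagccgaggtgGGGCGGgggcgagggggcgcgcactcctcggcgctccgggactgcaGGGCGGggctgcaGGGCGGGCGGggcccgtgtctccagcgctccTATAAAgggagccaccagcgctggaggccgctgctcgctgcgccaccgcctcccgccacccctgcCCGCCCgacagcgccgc
ATP1B1: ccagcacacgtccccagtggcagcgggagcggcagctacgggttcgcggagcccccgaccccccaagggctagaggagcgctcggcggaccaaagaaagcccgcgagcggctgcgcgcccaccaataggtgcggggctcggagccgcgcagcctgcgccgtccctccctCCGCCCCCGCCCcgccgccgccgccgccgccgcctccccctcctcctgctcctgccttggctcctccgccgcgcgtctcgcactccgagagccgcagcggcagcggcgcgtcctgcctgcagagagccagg
SLC12A2: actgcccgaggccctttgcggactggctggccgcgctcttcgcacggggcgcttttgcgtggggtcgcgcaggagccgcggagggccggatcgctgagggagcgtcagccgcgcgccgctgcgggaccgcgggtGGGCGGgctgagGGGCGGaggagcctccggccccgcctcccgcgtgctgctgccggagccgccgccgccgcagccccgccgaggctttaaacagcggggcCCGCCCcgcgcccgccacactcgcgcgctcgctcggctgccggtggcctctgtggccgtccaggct
The AQP3 window held 5 GC box matches, 2 of them overlapping, and a TATA box match that begins 32 bases before the start. That of ATP1B1 held 2 GC box matches and that of SLC12A2 held 3, with no TATAAA in either window. Guanine and cytosine made up 75.3% of the AQP3 window, 77% of the ATP1B1 window and 78.7% of the SLC12A2 window, against a median of 58.3% over 27305 promoters. Of those promoters 44.6% held a GC box match and 12% a TATA box match on either strand, so a GC box is common among promoters of this length. These letters are not particular to the genes that fell, since the window of SLC9A3, which rose, held 81.3% guanine and cytosine and 6 GC box matches. Windows of the uncalled genes held 60.7% for CFTR and KCNN4 and 39.7% for SLC26A3. Other elements were also sought as exact matches, and none of the 7 windows held one. They were the AP-1 element TGANTCA, the cAMP response element TGACGTCA, the CDX element TTTATG, the HNF4 element CAAAGTCCA and the tonicity element core TGGAAA. Of all promoters 7.76%, 1.98%, 11%, 0.359% and 21.1% held a match to these in that order. Matches are a description of letters in these windows, not of binding.

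All 9 genes passed the count filter. A gene was called where edgeR's quasi-likelihood test gave a Benjamini-Hochberg adjusted p under 0.05 over all 13157 tested genes. At 1:10000 against control 6 of the 9 were called, 1 higher and 5 lower, beside 71.0% of all tested genes called, 34.8% higher and 36.2% lower. At 1:40000 against control 6 of the 9 were called, 2 higher and 4 lower, beside 52.1% of all tested genes, 26.1% higher and 26.0% lower. Between the dilutions 4 of the 9 were called, all 4 of them lower at 1:10000, beside 57.3% of all tested genes, 28.3% higher and 29% lower. Read against these shares, the counts by themselves do not set the 9 genes apart. The median log2 fold change of the 9 was -0.48 at 1:10000 against control, beside -0.02 over all tested genes. It was -0.13 at 1:40000 against control and -0.36 at 1:10000 against 1:40000, with all-gene medians of -0.002 and -0.007. Both comparisons with control share the same 5 control libraries. The groups did not overlap for 4 of the 9 at 1:10000 against control, beside 57.8% of all tested genes, for 4 of the 9 at 1:40000 against control, beside 36.3%, and for 3 of the 9 between the dilutions, beside 40.3%.

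**Figure D1:**
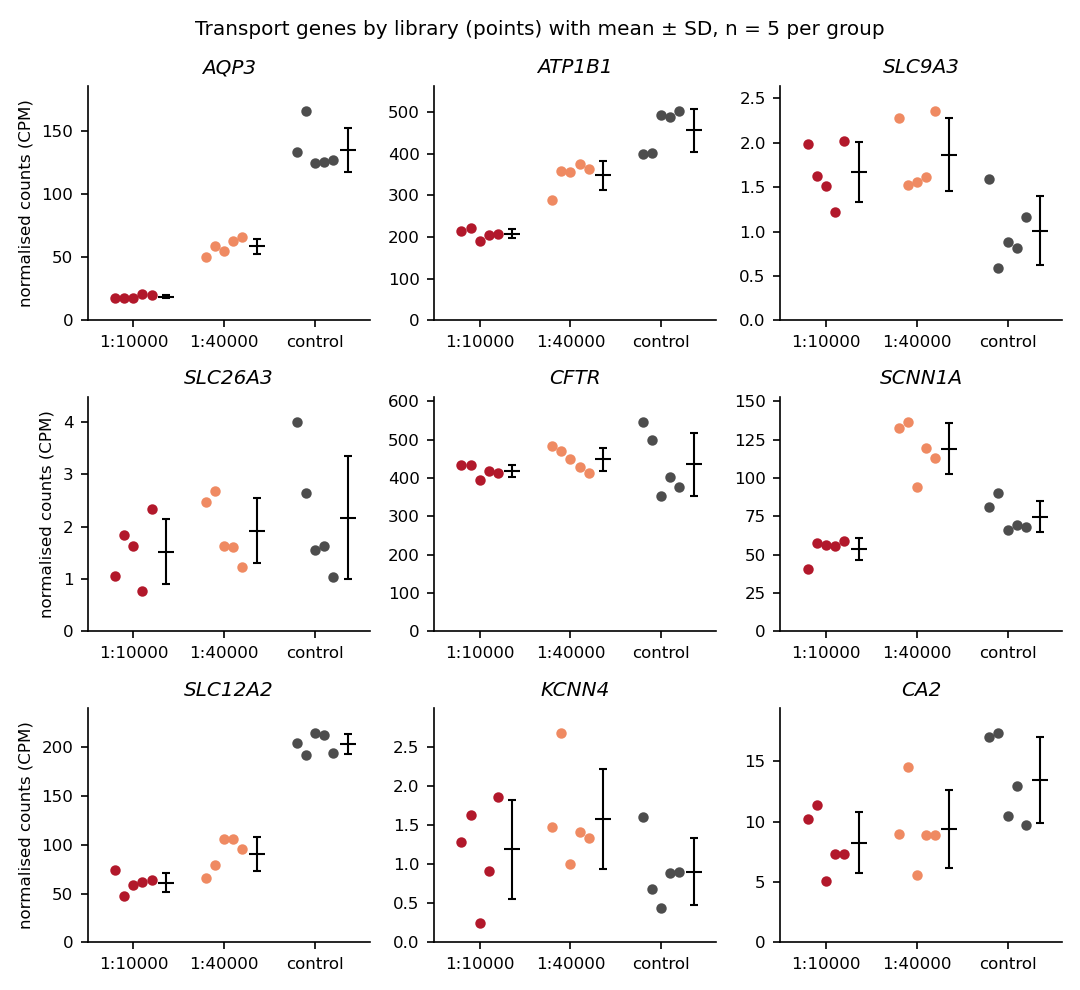
Normalised level in CPM of each of the 9 genes in all 15 libraries, with 1:10000 on the left, 1:40000 in the middle and control on the right of each panel; points are libraries and bars are means ± SD (n = 5). AQP3 stepped down with concentration and its groups did not overlap, while CFTR libraries lay between 354 and 546 CPM with all groups overlapping.

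AQP3, the basolateral water and glycerol channel (ENSG00000165272, chromosome 9, 33441154 to 33447633, minus strand in GENCODE 29 on GRCh38), changed most. Its level was 17.9, 18.1, 17.5, 20.9 and 20.2 CPM in the 5 libraries at 1:10000, 50.4, 58.8, 55.2, 63.1 and 66.1 CPM at 1:40000, and 133, 166, 125, 126 and 127 CPM in controls. Every 1:10000 library lay below every 1:40000 library, and every 1:40000 library below every control. The means were 18.9 ± 1.51 CPM at 1:10000, 58.7 ± 6.24 CPM at 1:40000 and 135 ± 17.4 CPM in controls (SD, n = 5 each). AQP3 was 7.18-fold lower at 1:10000 than in controls (log2 fold change -2.84 ± 0.10 SE, edgeR adjusted p = 4.27e-18). At 1:40000 it was 2.33-fold lower than in controls (-1.22 ± 0.09, edgeR adjusted p = 9.89e-12). Between the dilutions, where aligner and annotation were shared, it was 3.08-fold lower at 1:10000 (-1.62 ± 0.10, edgeR adjusted p = 1.74e-12). Only 278 of 13157 genes had a lower log2 fold change at 1:10000 against control, 361 at 1:40000 against control and 218 between the dilutions. No exon of AQP3 overlaps another gene in GENCODE 29, and its identifier version was the same in all files.

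Among the other 11 aquaporins 4 could be tested. Of these, 2 fell at 1:10000 against control, 1 rose and 1 fell at 1:40000 against control, and 3 were lower at 1:10000 than at 1:40000. The called shares were 50%, 50% and 75% in this order of comparisons, beside 71.0%, 52.1% and 57.3% of all tested genes. AQP11, an aquaporin of intracellular membranes, averaged 8.44 ± 2.28 CPM at 1:10000, 15.1 ± 2.09 CPM at 1:40000 and 32.3 ± 3.22 CPM in controls. It fell by 1.98 on the log2 scale at 1:10000 and by 1.10 at 1:40000 against control, so that AQP11, like AQP3, stepped down with concentration. AQP7, a channel for glycerol as well as water, averaged 4.6 ± 1.08 CPM at 1:10000, 7.89 ± 3.26 CPM at 1:40000 and 6.77 ± 1.07 CPM in controls, and was called lower at 1:10000 against control (-0.58 ± 0.24, edgeR adjusted p = 0.0336). The aquaporin that rose at 1:40000 was AQP4, singled out after its values were seen, at 1.01 ± 0.893 CPM at 1:10000, 3.62 ± 1.65 CPM at 1:40000 and 0.642 ± 0.114 CPM in controls.

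SCNN1A (ENSG00000111319, chromosome 12, 6346843 to 6377730, minus strand), the alpha subunit of ENaC, moved in opposite directions at the dilutions. Its level was 41.0, 57.4, 56.5, 55.7 and 58.8 CPM at 1:10000, 133, 136, 94.4, 119 and 113 CPM at 1:40000, and 81.1, 89.9, 66.3, 69.1 and 67.8 CPM in controls. All 1:10000 libraries lay below all controls, and all 1:40000 libraries above them. The means were 53.9 ± 7.31 CPM at 1:10000, 119 ± 16.8 CPM at 1:40000 and 74.9 ± 10.2 CPM in controls (SD, n = 5 each). SCNN1A fell at 1:10000 against control (-0.48 ± 0.12, edgeR adjusted p = 0.000891) and rose at 1:40000 against control (0.66 ± 0.11, edgeR adjusted p = 4.62e-05). With only the libraries numbered 3 to 5 the fall at 1:10000 against control was smaller and still called (-0.24 ± 0.08, edgeR adjusted p = 0.00724). At 1:10000 it was 2.2-fold lower than at 1:40000 (-1.14 ± 0.11, edgeR adjusted p = 4.46e-08). A called change in opposite directions against control at the dilutions was found in 351 of all tested genes, or 2.67%. In the annotation SCNN1A shares 422 of its 5876 exonic bases with LTBR on the opposite strand, and no strand setting is given in the sources used here. LTBR, a TNF receptor family member, averaged 135 ± 3.36 CPM at 1:10000, 112 ± 13.1 CPM at 1:40000 and 115 ± 7.41 CPM in controls. LTBR was thus highest at 1:10000, where SCNN1A was lowest.

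A conducting ENaC channel is usually made with beta and gamma subunits as well. SCNN1B and SCNN1G had 0 counts in all 15 libraries, which allows up to 0.01 CPM over the libraries together, 0.0238 CPM without the deepest library, or 1.15 CPM in the shallowest library, for counting error only. SCNN1D, the delta subunit, averaged 0.0563 ± 0.0777 CPM at 1:10000, 0.109 ± 0.0726 CPM at 1:40000 and 0.242 ± 0.162 CPM in controls, and did not pass the count filter.

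SLC9A3, the apical sodium-proton exchanger NHE3 (ENSG00000066230, chromosome 5, 470458 to 524332, minus strand), was scarce. Its level was 1.99, 1.63, 1.51, 1.22 and 2.02 CPM at 1:10000, 2.27, 1.53, 1.56, 1.61 and 2.36 CPM at 1:40000, and 1.60, 0.587, 0.887, 0.816 and 1.16 CPM in controls. All 10 rinse aid libraries lay above control replicates 2 to 5, and control replicate 1 lay within both rinse aid ranges. These levels stand on 8 to 17 counts per library at 1:10000, 4 to 395 at 1:40000 and 4 to 12 in controls. SLC9A3 rose at 1:10000 against control (0.82 ± 0.31, edgeR adjusted p = 0.0202) and at 1:40000 against control (1.03 ± 0.28, edgeR adjusted p = 0.00312). The call at 1:10000 was lost in DESeq2 (adjusted p = 0.0505), with no count filter (edgeR adjusted p = 0.0521), without control replicate 2 or 4 (edgeR adjusted p = 0.0723 and 0.0617), and with only the libraries numbered 3 to 5 (edgeR adjusted p = 0.101). The difference between the dilutions was -0.21 ± 0.26, not called, with an approximate 95% interval of -0.71 to 0.30. In the annotation 2363 of its 5635 exonic bases are shared with PP7080 on the same strand, which had 0 counts in every library. Another 839 are shared with EXOC3 and 830 with SLC9A3-AS1, both on the opposite strand. EXOC3 averaged 34.0 ± 5.54 CPM at 1:10000, 31.9 ± 2.66 CPM at 1:40000 and 37.6 ± 0.914 CPM in controls, far above SLC9A3. SLC9A3-AS1 averaged 4.42 ± 1.34 CPM at 1:10000, 7.88 ± 1.23 CPM at 1:40000 and 8.12 ± 1.37 CPM in controls. Reads of these genes cannot be told apart where they overlap. SLC9A3 also has 2 transcripts outside the primary assembly.

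Around these entry routes, 12 of 17 further genes for sodium entry and proton exchange were tested. Of these, 4 rose and 5 fell at 1:10000 against control, and 4 rose and 4 fell at 1:40000 against control. Between the dilutions 2 were higher and 6 lower at 1:10000. Called genes made up 75%, 66.7% and 66.7% of the tested ones in that order, beside 71.0%, 52.1% and 57.3% of all tested genes. ST14 (matriptase), a membrane protease of the kind that activates ENaC, averaged 217 ± 10.9 CPM at 1:10000, 381 ± 18.0 CPM at 1:40000 and 556 ± 27.8 CPM in controls, a fall of 1.36 and 0.54 on the log2 scale at the dilutions against control. NHERF1, the scaffold that anchors NHE3 and CFTR under the apical membrane, averaged 128 ± 13.4 CPM at 1:10000, 275 ± 12.3 CPM at 1:40000 and 319 ± 27.9 CPM in controls, and was called lower at 1:10000 in both comparisons (-1.32 ± 0.07 against control and -1.11 ± 0.07 against 1:40000). The related scaffold PDZK1 averaged 37.5 ± 5.25 CPM at 1:10000, 61.1 ± 11.1 CPM at 1:40000 and 68.1 ± 7.77 CPM in controls, and was also lower at 1:10000 against control (-0.86 ± 0.11). Other proteases and scaffolds of the list were singled out after their values were seen. The scaffold NHERF4 went the same way, at 1.19 ± 0.697 CPM at 1:10000, 4.78 ± 1.03 CPM at 1:40000 and 6.25 ± 1.46 CPM in controls. Its log2 fold change at 1:10000 was -2.39 against control and -2.09 against 1:40000. PRSS8, EZR and NHERF2 went otherwise. PRSS8 (prostasin), another protease that activates ENaC, averaged 402 ± 20.5 CPM at 1:10000, 523 ± 52.6 CPM at 1:40000 and 388 ± 27.8 CPM in controls, and was called higher at 1:40000 against control (log2 fold change 0.43) but not at 1:10000. EZR (ezrin), which links such scaffolds to actin, rose by 0.32 on the log2 scale at 1:10000 and fell by 0.25 at 1:40000 against control. The identifier version of EZR changed between the file sets. NHERF2 averaged 19.6 ± 3.11 CPM at 1:10000, 20.6 ± 3.44 CPM at 1:40000 and 16.5 ± 2.05 CPM in controls and was not called. SGK1, the kinase that raises ENaC and NHE3 at the membrane, fell by 0.68 on the log2 scale at 1:10000 and fell by 0.57 at 1:40000 against control. SLC9A8, another sodium-proton exchanger, rose by 0.23 at 1:10000 and by 0.48 at 1:40000 against control.

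ATP1B1 (ENSG00000143153, chromosome 1, 169105697 to 169132722, plus strand) encodes the beta 1 subunit that brings the sodium pump to the membrane. Its level was 214, 222, 191, 205 and 207 CPM at 1:10000, 288, 358, 356, 376 and 363 CPM at 1:40000, and 398, 400, 492, 487 and 502 CPM in controls. The groups did not overlap, and the 1:40000 libraries lay between the others. The means were 208 ± 11.4 CPM at 1:10000, 348 ± 34.6 CPM at 1:40000 and 456 ± 51.9 CPM in controls (SD, n = 5 each). ATP1B1 was 2.2-fold lower at 1:10000 than in controls (-1.13 ± 0.08, edgeR adjusted p = 2.76e-12) and 1.31-fold lower at 1:40000 than in controls (-0.39 ± 0.08, edgeR adjusted p = 0.000127). Between the dilutions it was 1.67-fold lower at 1:10000 (-0.74 ± 0.08, edgeR adjusted p = 1.6e-08). The identifier version changed between the file sets, and 192 of its 2962 exonic bases are shared with NME7 on the opposite strand. NME7 averaged 6.63 ± 1.08 CPM at 1:10000, 7.55 ± 0.687 CPM at 1:40000 and 10.3 ± 1.19 CPM in controls, so it too was lower in the rinse aid groups.

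ATP1B3, another beta subunit, averaged 163 ± 13.0 CPM at 1:10000, 151 ± 15.4 CPM at 1:40000 and 165 ± 16 CPM in controls, and was not called in any of the 3 comparisons. FXYD5, a small regulatory subunit of the pump, rose at 1:10000 to 19.0 ± 3.47 CPM and at 1:40000 to 14.4 ± 1.15 CPM, against 9.20 ± 0.976 CPM in controls. It was the member called among the 3 further pump genes tested, or 33.3% in each comparison. Of all tested genes 71.0%, 52.1% and 57.3% were called at 1:10000 against control, at 1:40000 against control and between the dilutions.

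**Figure D2:**
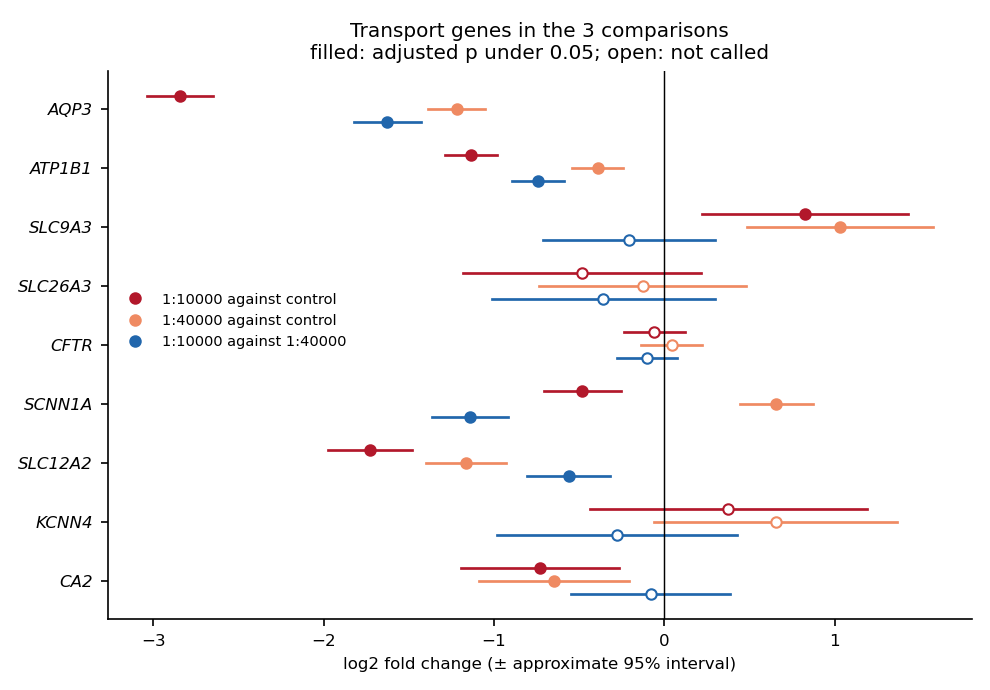
Log2 fold change of each of the 9 genes in 3 comparisons, 1:10000 against control, 1:40000 against control and 1:10000 against 1:40000, with approximate 95% intervals as bars; filled points were called. AQP3, ATP1B1 and SLC12A2 lie below 0 in all 3 comparisons, while SCNN1A lies below 0 at 1:10000 and above 0 at 1:40000 against control.

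SLC12A2, the sodium-potassium-chloride cotransporter NKCC1 that loads chloride for secretion (ENSG00000064651, chromosome 5, 128083766 to 128189688, plus strand), fell at both dilutions. Its level was 74.0, 47.2, 58.4, 61.6 and 64.4 CPM at 1:10000, 66.2, 79.4, 106, 106 and 95.6 CPM at 1:40000, and 205, 192, 215, 213 and 194 CPM in controls. Every rinse aid library lay far below every control, while 1:10000 replicate 1 and 1:40000 replicate 1 brought the rinse aid groups into overlap. The means were 61.1 ± 9.70 CPM at 1:10000, 90.5 ± 17.3 CPM at 1:40000 and 204 ± 10.2 CPM in controls (SD, n = 5 each). SLC12A2 was 3.31-fold lower at 1:10000 than in controls (-1.73 ± 0.12, edgeR adjusted p = 7.84e-10) and 2.24-fold lower at 1:40000 than in controls (-1.17 ± 0.12, edgeR adjusted p = 2.87e-07). At 1:10000 it was 1.48-fold lower than at 1:40000 (-0.56 ± 0.12, edgeR adjusted p = 0.000946). No exon of SLC12A2 overlaps another gene, and its identifier version was the same in all files.

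All 10 further cation-chloride cotransporters and kinases were tested. Of these, 5 rose and 2 fell at 1:10000 against control, and 2 rose and 1 fell at 1:40000 against control. Between the dilutions 4 were higher and 2 lower at 1:10000. Called genes made up 70%, 30% and 60% of the 10 in that order, beside 71.0%, 52.1% and 57.3% of all tested genes. STK39 (SPAK), the kinase that activates NKCC1, averaged 11.8 ± 2.65 CPM at 1:10000, 6.88 ± 2.08 CPM at 1:40000 and 3.57 ± 0.597 CPM in controls, and rose by 1.73 ± 0.22 and 1.03 ± 0.21 on the log2 scale at the dilutions against control. The kinase thus stepped up with concentration where its substrate SLC12A2 stepped down. SLC12A7, a potassium-chloride cotransporter that lets chloride out, averaged 6.90 ± 1.14 CPM at 1:10000, 7.23 ± 1.45 CPM at 1:40000 and 24.7 ± 2.80 CPM in controls. It has 5 transcripts outside the primary assembly. SLC12A4, another such cotransporter, averaged 107 ± 5.33 CPM at 1:10000, 64.7 ± 7.49 CPM at 1:40000 and 60.6 ± 4.03 CPM in controls. WNK2, of the kinase family upstream of SPAK, averaged 8.41 ± 1.27 CPM at 1:10000, 16.7 ± 2.58 CPM at 1:40000 and 15.7 ± 3.10 CPM in controls. Its identifier version changed between the file sets. WNK1, of the same family, rose by 0.26 on the log2 scale at 1:40000 against control.

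CFTR, the cyclic AMP-regulated apical chloride and bicarbonate channel (ENSG00000001626, chromosome 7, 117465784 to 117715971, plus strand), was abundant and was not called with all libraries. Its level was 433, 433, 395, 418 and 412 CPM at 1:10000, 484, 470, 450, 428 and 412 CPM at 1:40000, and 546, 498, 354, 403 and 376 CPM in controls. The groups overlapped throughout, and the controls were the most spread. The means were 418 ± 16.1 CPM at 1:10000, 449 ± 29.5 CPM at 1:40000 and 436 ± 82.5 CPM in controls (SD, n = 5 each). The log2 fold change was -0.06 ± 0.09 at 1:10000 against control (edgeR adjusted p = 0.576, interval -0.24 to 0.12) and 0.04 ± 0.09 at 1:40000 against control (adjusted p = 0.721, interval -0.13 to 0.22). Between the dilutions it was -0.10 ± 0.09 (edgeR adjusted p = 0.355, interval -0.28 to 0.08). These approximate 95% intervals reach from 0.28 lower to 0.22 higher on the log2 scale. With only the libraries numbered 3 to 5, an alternative added after the data were seen, CFTR was called higher at 1:10000 than in controls (0.12 ± 0.05, edgeR adjusted p = 0.0243) and at 1:40000 than in controls (0.19 ± 0.05, edgeR adjusted p = 0.000887). Between the dilutions it was not called there either (-0.07 ± 0.05, edgeR adjusted p = 0.226). That choice left out the highest pair of each group, including the controls at 546 and 498 CPM, so its calls are not independent of the choice. With a replicate block on all libraries CFTR stayed uncalled (-0.04 ± 0.07 at 1:10000 against control, edgeR adjusted p = 0.552). Only 59 of its 9343 exonic bases are shared with other genes, and its identifier version changed between the file sets.

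Per kilobase of exon, the ratio of SLC12A2 to CFTR, of chloride loader to chloride channel, was 0.128 ± 0.0200 at 1:10000, 0.179 ± 0.0424 at 1:40000 and 0.422 ± 0.0867 in controls (SD, n = 5 each). It was lower at either dilution than in controls (two-sided exact permutation test, p = 0.00794, the smallest this design allows, Benjamini-Hochberg adjusted p = 0.0119 over 3 ratio tests, for both). Between the dilutions the exact permutation test gave p = 0.0714, with an adjusted p of the same value. The transcript of the loader thus fell relative to that of the channel in all 10 rinse aid libraries, with the aligner difference standing beside this comparison. SLC12A2 alone already separated both dilutions from controls without overlap, and CFTR was not called with all libraries. The ratio therefore restates the fall of SLC12A2, and its test adds no separate evidence.

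Among 13 further chloride channel genes 12 were tested, of which 8 rose and 2 fell at 1:10000 against control. At 1:40000 against control 7 rose and 2 fell, and between the dilutions 5 were higher and 1 lower at 1:10000. The called shares were 83.3%, 75% and 50% in that order, beside 71.0%, 52.1% and 57.3% of all tested genes. CLIC5, a chloride intracellular channel protein tied to the actin core of microvilli, averaged 135 ± 10.4 CPM at 1:10000, 44.5 ± 8.97 CPM at 1:40000 and 21.7 ± 1.10 CPM in controls, and rose by 2.64 ± 0.11 and 1.08 ± 0.11 on the log2 scale at the dilutions against control. CLCN3, an endosomal chloride-proton exchanger, averaged 158 ± 4.77 CPM at 1:10000, 116 ± 8.75 CPM at 1:40000 and 82.0 ± 2.94 CPM in controls. Both stepped up with concentration. LRRC8D, a subunit of volume-regulated anion channels, averaged 59.5 ± 5.63 CPM at 1:10000, 58.4 ± 8.21 CPM at 1:40000 and 36.7 ± 2.30 CPM in controls. ANO1, the calcium-activated chloride channel TMEM16A, averaged 1.99 ± 0.626 CPM at 1:10000, 8.10 ± 2.40 CPM at 1:40000 and 1.67 ± 0.608 CPM in controls, so that it was high at the weaker dilution alone (1:10000 against 1:40000, -2.08 ± 0.25, edgeR adjusted p = 1.63e-07). Identifier versions of CLCN3 and ANO1 changed between the file sets. CLIC1 averaged 0.0915 ± 0.205 CPM at 1:10000, 0.0433 ± 0.0905 CPM at 1:40000 and 196 ± 5.29 CPM in controls. With 30 CLIC1 transcripts outside the primary assembly, its near absence follows the file set and cannot be told apart from the change of annotation.

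SLC26A3, the apical chloride-bicarbonate exchanger DRA (ENSG00000091138, chromosome 7, 107765467 to 107803225, minus strand), was scarce and was not called. Its level was 1.05, 1.83, 1.64, 0.763 and 2.33 CPM at 1:10000, 2.47, 2.67, 1.63, 1.61 and 1.23 CPM at 1:40000, and 3.99, 2.64, 1.55, 1.63 and 1.03 CPM in controls. The groups overlapped, and the controls alone ran from 1.03 to 3.99 CPM. The log2 fold change was -0.48 ± 0.36 at 1:10000 against control (edgeR adjusted p = 0.226, interval -1.18 to 0.21) and -0.13 ± 0.31 at 1:40000 against control (adjusted p = 0.756, interval -0.74 to 0.48). Between the dilutions it was -0.36 ± 0.33 (edgeR adjusted p = 0.375, interval -1.01 to 0.30). Apart from 1:40000 replicates 1 and 3, which held 429 and 44 counts, libraries held 5 to 27 counts of SLC26A3.

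Of 11 further chloride and bicarbonate exchangers 6 were tested, and 5 were called at each dilution against control, 2 higher and 3 lower. That is 83.3% at either dilution, beside 71.0% of all tested genes at 1:10000 and 52.1% at 1:40000. Between the dilutions 1 was higher and 3 were lower at 1:10000, or 66.7% called beside 57.3% of all tested genes. SLC26A2, the sulphate exchanger of the same family as DRA, averaged 134 ± 12.7 CPM at 1:10000, 399 ± 33.2 CPM at 1:40000 and 605 ± 122 CPM in controls. SLC4A8, a sodium-driven chloride-bicarbonate exchanger, averaged 41.7 ± 5.08 CPM at 1:10000, 93.9 ± 8.16 CPM at 1:40000 and 178 ± 18.4 CPM in controls. Both stepped down with concentration. Against control, SLC26A2 fell by 2.18 on the log2 scale at 1:10000 and fell by 0.60 at 1:40000, while SLC4A8 fell by 2.09 at 1:10000 and fell by 0.92 at 1:40000. SLC4A7, the sodium-bicarbonate cotransporter NBCn1, rose at 1:10000 to 28.7 ± 3.14 CPM and at 1:40000 to 27.3 ± 5.34 CPM, against 9.81 ± 3.44 CPM in controls. Between the dilutions, where aligner and annotation were shared, its log2 fold change was 0.09 ± 0.15, not called. Identifier versions of SLC4A7 and SLC26A2 changed between the file sets. SLC4A2, the basolateral anion exchanger AE2, averaged 275 ± 25.9 CPM at 1:10000 and 222 ± 18.1 CPM at 1:40000, and was the 1 exchanger called higher between the dilutions.

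KCNN4, the calcium-activated intermediate conductance potassium channel (ENSG00000104783, chromosome 19, 43766533 to 43781261, minus strand), was scarce and was not called. Its level was 1.29, 1.63, 0.252, 0.915 and 1.86 CPM at 1:10000, 1.47, 2.67, 1.00, 1.41 and 1.33 CPM at 1:40000, and 1.60, 0.685, 0.444, 0.884 and 0.904 CPM in controls. The groups overlapped. The log2 fold change was 0.38 ± 0.41 at 1:10000 against control (edgeR adjusted p = 0.426, interval -0.44 to 1.19) and 0.65 ± 0.36 at 1:40000 against control (adjusted p = 0.135, interval -0.06 to 1.37). Between the dilutions it was -0.28 ± 0.36 (edgeR adjusted p = 0.53, interval -0.98 to 0.43). Apart from 1:40000 replicates 1 and 3, which held 256 and 27 counts, libraries held 2 to 14 counts of KCNN4.

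Of 12 further potassium channel genes 7 were tested, of which 2 rose and 3 fell at 1:10000 against control. At 1:40000 against control 1 rose and 2 fell, and 2 were higher and 4 lower at 1:10000 than at 1:40000. The called shares were 71.4%, 42.9% and 85.7% in that order, beside 71.0%, 52.1% and 57.3% of all tested genes. KCNK5, a background channel of epithelial cells also known as TASK-2, averaged 22.7 ± 3.12 CPM at 1:10000, 40.6 ± 3.18 CPM at 1:40000 and 61.4 ± 4.39 CPM in controls, without overlap of its groups against control. KCNK6, of the same family, averaged 4.68 ± 1.35 CPM at 1:10000, 12.3 ± 1.75 CPM at 1:40000 and 13.5 ± 3.42 CPM in controls. Both were lowest at 1:10000. KCNMA1, the large conductance channel of the colonic apical membrane, averaged 8.01 ± 1.66 CPM at 1:10000, 12.9 ± 1.53 CPM at 1:40000 and 8.34 ± 1.22 CPM in controls, and rose at 1:40000 against control. KCNJ8, a pore subunit of ATP-sensitive potassium channels, averaged 187 ± 10.4 CPM at 1:10000, 155 ± 6.83 CPM at 1:40000 and 151 ± 20.9 CPM in controls, and rose at 1:10000 against control by 0.32 on the log2 scale (edgeR adjusted p = 0.000488). KCNE3, the subunit that with KCNQ1 supports chloride secretion, averaged 112 ± 6.12 CPM at 1:10000, 86.4 ± 4.51 CPM at 1:40000 and 97.3 ± 6.19 CPM in controls. It was called higher at 1:10000 (log2 fold change 0.20) and lower at 1:40000 (-0.17) against control. KCNQ1, singled out as its partner, averaged 0 CPM at 1:10000, 0.113 ± 0.125 CPM at 1:40000 and 0.0258 ± 0.0578 CPM in controls. It did not pass the count filter and has 3 transcripts outside the primary assembly.

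CA2, cytosolic carbonic anhydrase II (ENSG00000104267, chromosome 8, 85463852 to 85481493, plus strand), fell at both dilutions by less than AQP3 or SLC12A2. Its level was 10.2, 11.4, 5.04, 7.32 and 7.29 CPM at 1:10000, 9.01, 14.5, 5.60, 8.86 and 8.91 CPM at 1:40000, and 17.0, 17.3, 10.4, 12.9 and 9.69 CPM in controls. The groups overlapped, through control replicates 3 and 5 and the highest rinse aid libraries. The means were 8.25 ± 2.53 CPM at 1:10000, 9.38 ± 3.21 CPM at 1:40000 and 13.5 ± 3.57 CPM in controls (SD, n = 5 each). CA2 fell at 1:10000 against control (-0.73 ± 0.24, edgeR adjusted p = 0.0101) and at 1:40000 against control (-0.65 ± 0.22, edgeR adjusted p = 0.0205). The call at 1:40000 was lost with no count filter (edgeR adjusted p = 0.0932) and without control replicate 1 or 2 or 1:40000 replicate 3 (edgeR adjusted p = 0.0565, 0.0687 and 0.0542). Between the dilutions the log2 fold change was -0.08 ± 0.24, not called, with an interval of -0.55 to 0.39.

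Of 14 further carbonic anhydrase genes 5 were tested and all 5 were called at 1:10000 against control, 1 higher and 4 lower, where 71.0% of all tested genes were called. At 1:40000 against control 2 rose and 2 fell, and between the dilutions 2 were lower at 1:10000. The called shares were 80% and 40% there, beside 52.1% and 57.3% of all tested genes. CA13, another cytosolic enzyme, averaged 26.8 ± 3.99 CPM at 1:10000, 28.3 ± 2.65 CPM at 1:40000 and 33.2 ± 4.15 CPM in controls, and fell by 0.31 and 0.25 on the log2 scale at the dilutions against control. CA11, a catalytically inactive relative, averaged 7.89 ± 1.15 CPM at 1:10000, 14.5 ± 1.35 CPM at 1:40000 and 10.4 ± 1.68 CPM in controls, so that, like SCNN1A, it fell at 1:10000 and rose at 1:40000 against control (-0.43 ± 0.14 and 0.44 ± 0.13).

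**Figure D3:**
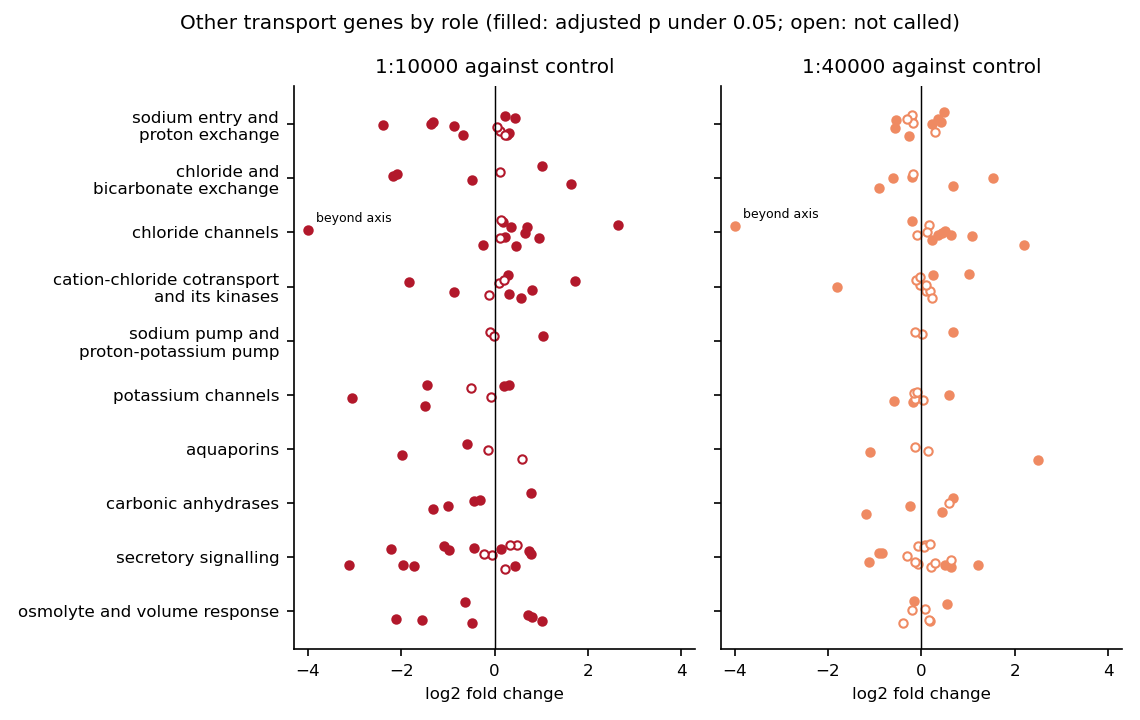
Log2 fold change at 1:10000 against control (left panel) and 1:40000 against control (right panel) of the 82 tested genes of the wider transport list, by role, with called genes filled; CLIC1 lies beyond the axis in both panels and is drawn at its edge. Chloride channels lie mostly to the right of 0 in both panels (8 and 7 of 12 rose, beside 34.8% and 26.1% of all tested genes).

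Secretion is switched on by receptors and kinases upstream of these transporters, and 16 of 19 genes of that signalling were tested. At 1:10000 against control 4 rose and 7 fell, and at 1:40000 against control 3 rose and 3 fell. Between the dilutions 1 was higher and 8 were lower at 1:10000. Called genes made up 68.75%, 37.5% and 56.25% of the 16 in that order, beside 71.0%, 52.1% and 57.3% of all tested genes. P2RY2, the ATP receptor that starts calcium-driven secretion, averaged 13.3 ± 1.87 CPM at 1:10000, 32.0 ± 6.90 CPM at 1:40000 and 61.7 ± 5.16 CPM in controls. GUCY2C, the guanylin receptor that raises cyclic GMP, averaged 4.46 ± 0.946 CPM at 1:10000, 9.15 ± 1.33 CPM at 1:40000 and 17.0 ± 4.39 CPM in controls. GUCA2A, its ligand guanylin, averaged 4.8 ± 1.31 CPM at 1:10000, 7.43 ± 1.29 CPM at 1:40000 and 15.3 ± 3.12 CPM in controls. The purinergic receptor, the guanylin receptor and the ligand thus all had their lowest levels at 1:10000 and their highest in controls. PRKACA, a catalytic subunit of the cyclic AMP-dependent kinase, averaged 43.3 ± 2.25 CPM at 1:10000, 82.0 ± 8.18 CPM at 1:40000 and 85.8 ± 4.53 CPM in controls, while PRKG2, a cyclic GMP-dependent kinase that acts on CFTR, rose by 0.75 on the log2 scale at 1:10000 and by 1.22 at 1:40000 against control.

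Over all 10 roles, 82 of 125 genes other than the 9 were tested, of which 30 rose and 32 fell at 1:10000 against control, at 1:40000 against control 25 rose and 19 fell, and between the dilutions 18 were higher and 33 lower at 1:10000. Of all tested genes 34.8% rose and 36.2% fell at 1:10000 against control, 26.1% and 26.0% at 1:40000 against control, and 28.3% were higher and 29% lower between the dilutions. The median log2 fold changes were 0.07 at 1:10000 against control, 0.07 at 1:40000 against control and -0.08 at 1:10000 against 1:40000.

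**Figure D4:**
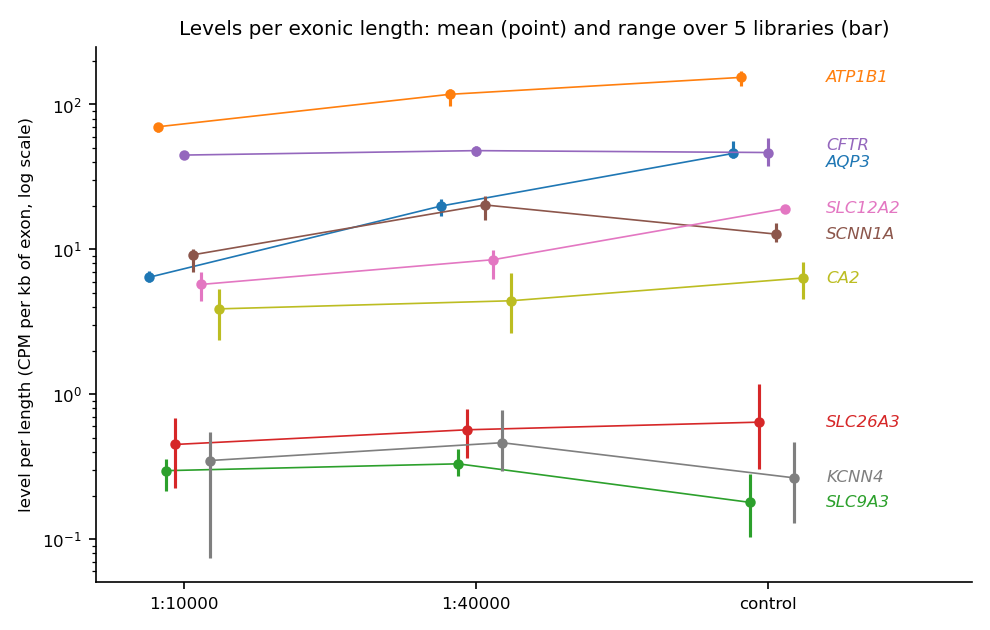
Mean level of the 9 genes per kilobase of exon (CPM per kb, logarithmic axis) at 1:10000, at 1:40000 and in controls, with bars from the lowest to the highest of 5 libraries. AQP3 stands level with CFTR in controls and well below it at either dilution.

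Per kilobase of exon, ATP1B1 had the highest level of the 9 in each group, at 70.2 CPM per kb at 1:10000, 118 at 1:40000 and 154 in controls, followed by CFTR at 44.8, 48.0 and 46.6 CPM per kb in the same groups. In controls AQP3 came next at 45.9 CPM per kb, within the range of CFTR, then SLC12A2 at 19.1, SCNN1A at 12.7 and CA2 at 6.34. At 1:40000 SCNN1A (20.3 CPM per kb) and AQP3 (19.9) were level within their ranges, followed by SLC12A2 (8.49) and CA2 (4.42), whose ranges also overlapped. At 1:10000 SCNN1A (9.17 CPM per kb), AQP3 (6.41), SLC12A2 (5.73) and CA2 (3.88) each overlapped the next. SCNN1A thus stood above AQP3 and SLC12A2 by mean at both dilutions and below them in controls. SLC26A3, KCNN4 and SLC9A3 were lowest in each group, between 0.179 and 0.642 CPM per kb by mean, and neighbours in that order overlapped in each group. In controls every library of SLC26A3 (0.306 to 1.18 CPM per kb) lay above every library of SLC9A3 (0.104 to 0.284 CPM per kb).

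**Figure D5:**
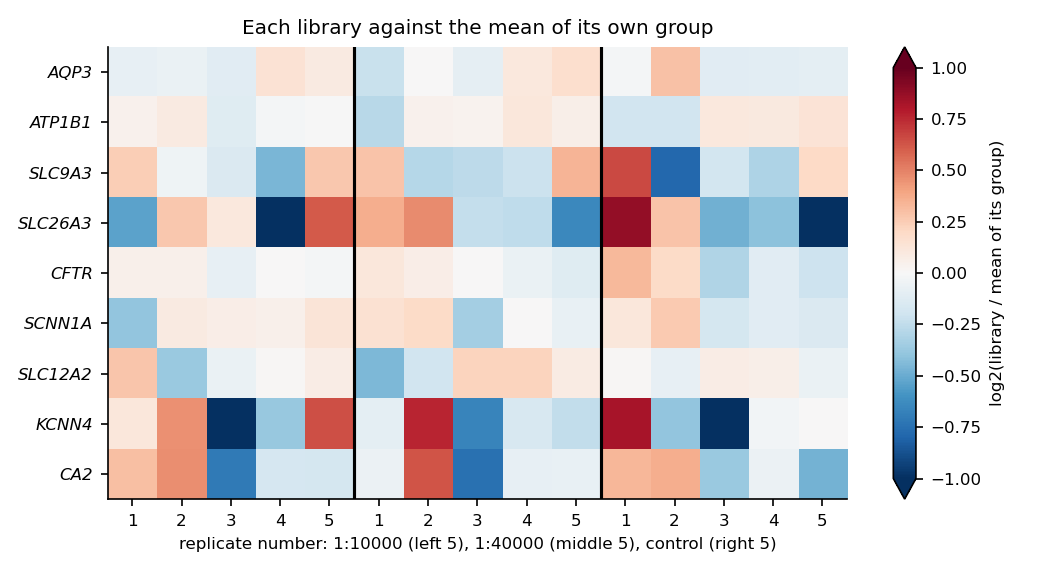
Level of each of the 9 genes (rows) in each library (columns, by replicate number, 1:10000 left, 1:40000 middle, control right) as log2 of its ratio to the mean of its own group, with red above and blue below the mean. CFTR and CA2 show their highest values in replicates 1 and 2 of each group.

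Within groups, libraries of the same number sometimes stood apart together. Replicates 1 and 2 were the highest pair in each of the 3 groups for CFTR and for CA2, from 1.25 and 1.14 times the group mean for CFTR in controls to 1.04 and 1.03 times at 1:10000. For SLC26A3 and SCNN1A they were the highest pair at 1:40000 and in controls. For ATP1B1 they were the lowest pair in controls but the highest pair at 1:10000, for SLC12A2 the lowest pair at 1:40000, for AQP3 the highest pair in controls and for KCNN4 the highest pair at 1:40000. The labels do not say what a replicate number stands for. A fit on the libraries numbered 3 to 5 alone, chosen after this pattern was seen, called 6 of the 9 genes at 1:10000 against control, 7 at 1:40000 against control and 4 between the dilutions. In that fit 9196 of all 13226 tested genes were called at 1:10000 against control and 6830 at 1:40000 against control. Between the dilutions, 57.3% of all tested genes were called with all libraries. Among the 9 genes, the call of CFTR was added in both comparisons with control and that of SLC9A3 was lost at 1:10000.

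The genes whose levels followed each of the 9 most closely over the 15 libraries were found by Pearson correlation of log2 CPM among about 10045 protein-coding genes that averaged 5 CPM or more. These correlations carry the group differences and the shared file sets and are given as a description. AQP3 was followed by RRBP1 (r = 0.995 over 15 libraries) and PEPD (r = 0.995), SLC12A2 by ABCB1 (r = 0.996) and SYTL2 (r = 0.989), and ATP1B1 by LMNB1 (r = 0.988) and AP1S3 (r = 0.984). SCNN1A was followed by H6PD (r = 0.988) and DIPK1B (r = 0.976), which averaged 44.1 ± 6.84 and 24.6 ± 2.74 CPM at 1:10000, 90.1 ± 10.9 and 46.6 ± 5.24 CPM at 1:40000, and 56.1 ± 6.81 and 32.2 ± 3.23 CPM in controls. For CA2 the closest were AFP (r = 0.937) and RBP2 (r = 0.891). CFTR was followed by PROS1 (r = 0.836) and RYR2 (r = 0.819). Among the scarce genes, SLC9A3 was followed by GLUD2 (r = 0.878) and HES6 (r = 0.865). The closest to SLC26A3 were PROS1 (r = 0.76) and TMEM187 (r = 0.756), and to KCNN4 BRAF (r = 0.852) and PNP (r = 0.829).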

How the data were processed

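Polyadenylated RNA of 15 Caco-2 libraries was prepared with the RNeasy Plus Micro and TruSeq RNA kits, per the labels' protocols. The authors deposited a table of raw counts by Ensembl identifier for each library. Per the file headers, the rinse aid files came from HISAT2 and the control files from RNA STAR. Per the submitters' processing notes, the build was GRCh38 and the tools STAR 2.7.9a, cutadapt, DESeq2 1.32.0 and featureCounts, with no role or order. Annotation release and strand setting are not given in the sources used here.

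Files were joined by Ensembl identifier without version, giving 60557 shared identifiers, of which 58298 are in GENCODE 29, the source of coordinates, exon overlaps and exonic lengths. Of the shared identifiers, 3798 had a changed version. Counts were fitted in R 4.3.3 with edgeR 4.0.16 (TMM scaling, filterByExpr by group, 3 group means, robust quasi-likelihood test), with Benjamini-Hochberg adjustment within each of 3 comparisons over 13157 genes. CPM are TMM-normalised, errors of means are SD, and the SE of a log2 fold change is approximate, taken as its size over the root of the F statistic. The approximate 95% intervals use this SE. Totals per library, from 2551839 to 172092447, set the precision of scarce genes, and limits from counts of 0 use 3 counts. The fit was tested on simulated data.

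The 9 genes and the lists were chosen with earlier results of these data known. Apart from subunit partners of the 9 (ATP1B3 and the other ENaC subunits), genes that overlap them and genes said to be singled out, further genes were named by a rule, the 3 called genes of each role with the largest change and a mean of at least 5 CPM in the compared libraries. The 2 most alike genes are named for each of the 9. Alternatives were DESeq2 1.42.0, other scaling, no count filter, only the groups compared, a replicate block, leaving out libraries, only the libraries numbered 3 to 5 (added after the data were seen), and a clean subset of protein-coding genes without exon overlap or changed version.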

Additional observations from a re-analysis of the deposited data

Results flagged for a closer look

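Of 30 groups of 5 libraries checked, over the 9 genes and total counts, 5 held a library far from the other 4, where chance gives about 1 in 20. AQP3 in control replicate 2, at 166 CPM, stood above the other controls at 125 to 133 CPM. ATP1B1 in 1:40000 replicate 1, at 288 CPM, stood below the others of that group at 356 to 376 CPM. SCNN1A in 1:10000 replicate 1, at 41.0 CPM, stood below the others at 55.7 to 58.8 CPM. KCNN4 in 1:40000 replicate 2, at 2.67 CPM on 7 counts, stood above the others at 1.00 to 1.47 CPM. The total of 172092447 counts in 1:40000 replicate 1 stood above the others of that group at 2551839 to 25956150 counts. Leaving out any of these libraries changed no call of AQP3, ATP1B1 or SCNN1A.

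SCNN1A is listed because its changes against control ran in opposite directions at the dilutions. The test of the difference itself gave a log2 fold change of -1.14 at 1:10000 against 1:40000 (edgeR quasi-likelihood, adjusted p = 4.46e-08), and all 5 libraries at 1:10000 lay below all 5 at 1:40000.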

How the results depend on the processing

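Of 16 calls among the 9 genes in the 3 comparisons, 14 held under every alternative that could be run for the gene, and the 2 others are those of SLC9A3 at 1:10000 and CA2 at 1:40000 against control, described above. Leaving out libraries in turn gave 9053 to 9555 called genes at 1:10000 against control, 6254 to 6971 at 1:40000 against control and 7075 to 7624 between the dilutions. In the clean subset, which holds 5330 tested genes, 4 of the 9 genes and fewer genes of the wider list, counts were lower because fewer genes were tested. There 3864 genes, 3 of the 9 and 31 of the wider list were called at 1:10000 against control, 2837, 3 and 19 at 1:40000 against control, and 3288, 2 and 25 between the dilutions.

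Apart from the fit on libraries numbered 3 to 5, directions turned only for uncalled changes. With single libraries left out, the log2 fold change of CFTR ran from -0.124 to 0.027 at 1:10000 against control (above 0 without control replicate 1) and from -0.0225 to 0.146 at 1:40000 against control (below 0 without control replicate 3), and that of SLC26A3 from -0.362 to 0.135 at 1:40000 against control (above 0 without control replicate 1). Between the dilutions KCNN4 ran from -0.510 to 0.0125 (above 0 without 1:10000 replicate 3) and CA2 from -0.240 to 0.0649 (above 0 without 1:10000 replicate 3 or 1:40000 replicate 2). Without the deepest and shallowest 1:40000 libraries CFTR became -0.0136 at 1:40000 against control and CA2 became 0.13 between the dilutions. With only the libraries numbered 3 to 5, chosen after the data were seen, CFTR became 0.12 at 1:10000 against control and 0.19 at 1:40000 against control, both called, and SLC26A3 became 0.154 and 0.0948 against control and 0.0594 between the dilutions, not called.

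Deviations of same-numbered libraries correlated at -0.05 to 0.06 at 1:10000 against control and 0.06 to 0.13 at 1:40000 against control. Between the dilutions they correlated at 0.05 to 0.28. The labels give no pairing, and the main fit did not pair the libraries. Whether same-numbered libraries share an origin was not tested. With the replicate block 9592, 7314 and 8012 genes were called in the 3 comparisons, beside 9343, 6858 and 7542 without it. Of the 9, 6, 6 and 4 were called, and no call among the 9 changed. CA2 at 1:10000 against control was then -0.70 ± 0.14 (edgeR adjusted p = 6.46e-05). Depth limits SLC9A3, SLC26A3 and KCNN4, and aligner and annotation limit every comparison with control.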

Other observations

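Genes of osmolyte uptake and cell volume response, which set how cells hold water when salt outside changes, moved in both directions. All 7 were tested and called at 1:10000 against control, 3 higher and 4 lower, where 71.0% of all tested genes were called. At 1:40000 against control 2 rose and 1 fell, and 2 were higher and 4 lower at 1:10000 than at 1:40000. The called shares were 42.9% and 85.7% there, beside 52.1% and 57.3% of all tested genes. SLC6A6, the taurine transporter, averaged 45.8 ± 5.07 CPM at 1:10000, 120 ± 3.93 CPM at 1:40000 and 134 ± 6.75 CPM in controls. AKR1B1, the aldose reductase that makes sorbitol, averaged 52.7 ± 3.45 CPM at 1:10000, 86.2 ± 3.07 CPM at 1:40000 and 81.9 ± 6.98 CPM in controls. SLC38A2, a sodium-coupled transporter of neutral amino acids, rose to 763 ± 145 CPM at 1:10000, against 379 ± 32.8 CPM in controls, and averaged 429 ± 27.4 CPM at 1:40000. NFAT5, the transcription factor of the hypertonic response, averaged 192 ± 10.9 CPM at 1:10000, 131 ± 14 CPM at 1:40000 and 117 ± 9.94 CPM in controls. HSPA4L, a heat shock protein of the osmotic stress response, averaged 29.7 ± 2.09 CPM at 1:10000, 24.9 ± 4.70 CPM at 1:40000 and 17.3 ± 2.00 CPM in controls, and rose by 0.80 and 0.54 on the log2 scale at the dilutions against control.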
